A study of Homo sapiens with 4 samples.

Results

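S100 proteins are small calcium-binding proteins of vertebrates. The 10 genes described here are S100A1, S100A2, S100A4, S100A6, S100A10, S100A11, S100A13, S100A14, S100A16 and S100P, out of 19775 genes with a probe set of their own. They were chosen by name: every probe set whose single platform gene symbol was one of the 10 was taken, which gave 13 probe sets of the 54675 on the array. Of the members, 7 had 1 probe set and 3 (S100A6, S100A10 and S100A13) had 2.

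The study sorted Huh7, an established cell line from a human hepatocellular carcinoma, by flow cytometry into CD133+ cells, which carry the surface protein made from PROM1, and CD133- cells, which do not. Both populations come from the same untreated line, with no other difference of genotype or agent in the labels. Each population was deposited once as RMA values and once as MAS5 signals, taken here as 1 array per population since the titles differ by algorithm alone. CD133 is used in liver cancer research as a marker of tumour-initiating cells, and the comparison asks what distinguishes such cells from the rest of the line.

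Each S100 protein carries a pair of EF-hands, helix-loop-helix motifs that take up calcium. Most form dimers, and calcium opens a groove on the dimer that binds other proteins, among them annexins, cytoskeletal proteins and, outside the cell, receptors such as RAGE. They have no enzymatic activity of their own and act through these partners in membrane repair, motility, secretion and inflammation, and several are used as tumour markers. S100A10 is an exception within the family, since its EF-hands have lost calcium binding and it is held in the active shape permanently.

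With 1 array per population there was no replicate error and no test, so every difference is a description of these arrays. It is unknown from the labels whether the sort was repeated. RMA values are log2 values, differences are CD133+ minus CD133-, and fold is 2 to the power of that difference. Where a gene has several probe sets, the one with the highest RMA average stands for it. A gene counts as detected if at least 1 of the populations exceeds a brightness floor of 4.86, the middle value over all probe sets of the higher RMA value of each. As a measure of technical spread, the difference of a single probe set had an SD of 0.21, estimated from 36916 pairs of probe sets of the same gene. Levels are not compared between probe sets, since each binds its target with its own strength.

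The sort marker was as labelled, and liver markers were present in both populations. PROM1 had an RMA value of 10.49 in CD133+ cells and 5.33 in CD133- cells. All 9 hepatocyte markers, such as albumin and alpha-fetoprotein, were detected in both populations and none differed by 2-fold. Their differences ran from -0.50 for AHSG to 0.55 for TTR. Such markers show liver-type cells and do not identify the line. By RMA, 213 of 12899 detected genes were at least 2-fold higher and 15 at least 2-fold lower, a share of 93.4% higher among such genes. By MAS5 the counts were 548 and 209 (72.4% higher), and with RMA centred on housekeeping genes they were 145 and 50 (74.4% higher). That centring takes off 0.23, the difference between the arrays' medians over 12 housekeeping genes. The median of those genes' own differences was only 0.02, so results after this centring depend on how the shift was taken.

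Among the S100 genes, S100A6 and S100A14 were higher in CD133+ cells by at least 2-fold on RMA, S100A11 by 1.80-fold, and the others by less than 1.5-fold. Of the 10 members 9 were detected, all 9 in both populations, and S100A2 was below the floor in both. The count at least 2-fold higher was 2 of 9 detected members, beside 1.65% of all detected genes. None was at least 2-fold lower, beside 0.116% of all detected genes. All 9 detected members had a positive RMA difference, although only 5 of the 9 did when the arrays were centred on housekeeping genes by 0.23. The smallest of the 9 differences, 0.05, was above 0.02, the median of the housekeeping genes' own differences. Of all detected genes 45.6% had a positive difference, and 13.6% after the centring by 0.23. The members were chosen with earlier results of these data known. Over all 11 detected S100 genes of the family list 9 were positive, since S100A5 and S100A9, which are not members, were negative by RMA. The S100A5 difference of -0.10 was smaller than the 0.21 spread of a single probe set. The median RMA difference was 0.45 over the detected members, -0.23 over the 2 other detected S100 genes and -0.01 over all detected genes. The value of 0.45 thus depends on which S100 genes were made members. In 4 of the 9 (S100A1, S100A13, S100A16 and S100P) the difference was smaller than the 0.21 spread of a single probe set. From pairs with both probe sets above the floor that spread was 0.17, about as large as the S100A13 difference.

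**Figure D1:**
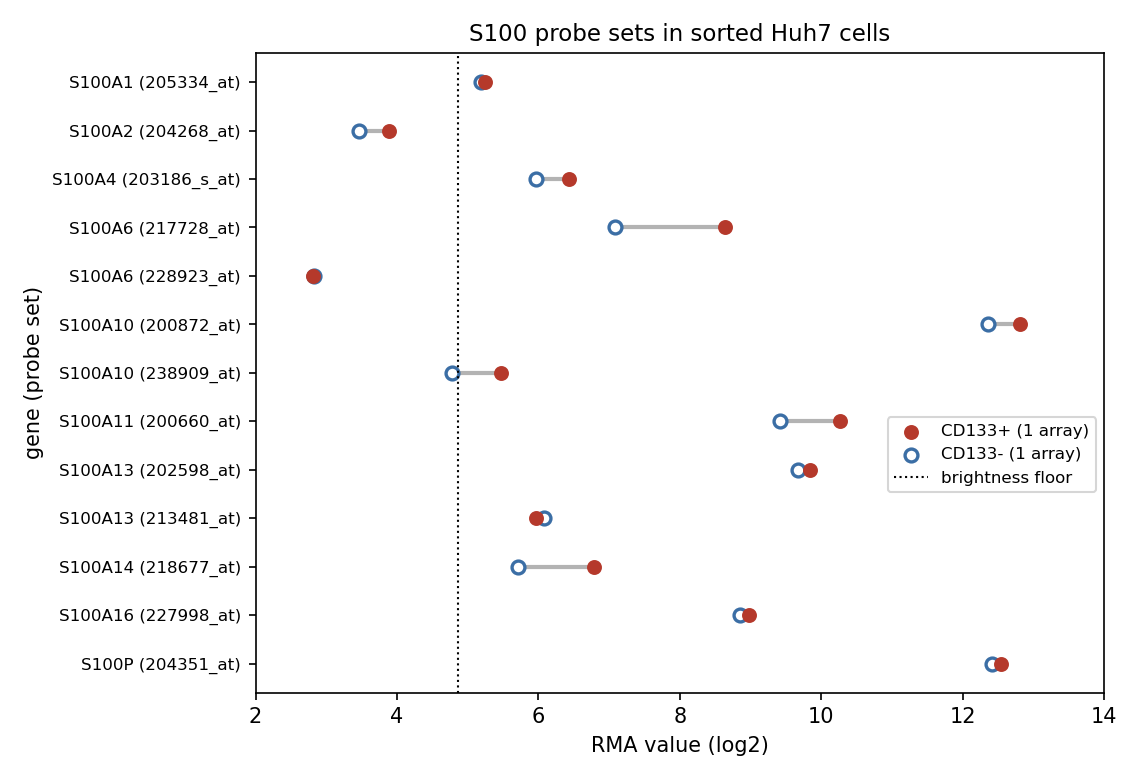
RMA values (log2, horizontal axis) of the 13 S100 probe sets on the CD133+ array (filled red) and the CD133- array (open blue), 1 array each and hence no error bars, with the brightness floor of 4.86 dotted. The widest gap is that of S100A6 probe set 217728_at, with 8.63 in CD133+ cells and 7.09 in CD133- cells; positions of different probe sets are not comparable with each other.

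Upstream sequence is shown for S100A6 and S100A14, the members at least 2-fold higher, for S100A11, the next in size, and for S100P, whose difference was small. Each run is the 250 bases before the annotated start in RefSeq (GRCh38.p14), written 5′ to 3′ on the strand of the gene. Capitals mark matches on either strand to GGGCGG, the GC box bound by SP1-type factors, to TATAAA, the TATA box, or to TGANTCA, an AP-1 site.
S100A6 (chr1:153535992-153536241, minus strand): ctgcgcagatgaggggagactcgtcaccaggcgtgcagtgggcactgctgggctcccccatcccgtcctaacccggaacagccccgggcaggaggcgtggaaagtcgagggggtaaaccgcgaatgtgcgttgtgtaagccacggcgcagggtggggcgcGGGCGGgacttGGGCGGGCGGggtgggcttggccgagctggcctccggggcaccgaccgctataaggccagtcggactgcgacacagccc
S100A14 (chr1:153616326-153616575, minus strand): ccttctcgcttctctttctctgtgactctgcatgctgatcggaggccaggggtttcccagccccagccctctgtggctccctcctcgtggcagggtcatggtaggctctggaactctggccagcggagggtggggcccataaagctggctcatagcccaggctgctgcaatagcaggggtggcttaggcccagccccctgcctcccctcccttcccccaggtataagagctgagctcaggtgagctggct
S100A11 (chr1:152037005-152037254, minus strand): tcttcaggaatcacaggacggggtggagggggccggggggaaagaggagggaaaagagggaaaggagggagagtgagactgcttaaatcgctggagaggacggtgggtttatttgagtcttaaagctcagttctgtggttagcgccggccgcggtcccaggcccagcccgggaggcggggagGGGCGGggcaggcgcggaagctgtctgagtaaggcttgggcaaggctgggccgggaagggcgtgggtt
S100P (chr4:6693628-6693877, plus strand): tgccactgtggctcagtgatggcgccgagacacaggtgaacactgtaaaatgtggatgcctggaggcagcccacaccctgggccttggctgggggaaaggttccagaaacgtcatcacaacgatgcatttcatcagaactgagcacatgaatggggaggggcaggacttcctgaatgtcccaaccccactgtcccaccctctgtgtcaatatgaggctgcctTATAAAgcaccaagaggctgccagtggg
The S100A6 window held 3 GC boxes, beginning 90, 79 and 75 bases before the start, the last 2 of which overlap by 2 bases. The S100A11 window held 1, beginning 68 bases before the start. The S100P window held a TATA box that begins 28 bases before the start, and the S100A14 window held none of the 3 motifs. Of all 35116 RefSeq promoter windows of this length, 42.6% held a GC box, 10.7% a TATA box and 6.57% an AP-1 site. Upstream windows were found for all 10 members, and among them an AP-1 match occurred in S100A2 only. GC boxes also occurred in windows of S100A10, S100A13 and S100A16, and TATA boxes in windows of S100A4 and S100A13. GC and TATA boxes were thus found in members with larger and with smaller differences. A relation between the motifs and the differences was not tested.

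S100A6, also called calcyclin, is induced when resting cells enter the cell cycle and binds CACYBP, a protein of a ubiquitin ligase complex. Its main probe set, 217728_at, had an RMA value of 8.63 in CD133+ cells and 7.09 in CD133- cells. The difference of 1.55 corresponds to 2.92-fold and ranks 87 of 12899 detected genes from the highest. MAS5 gave signals of 2128 in CD133+ cells and 661 in CD133- cells, 3.22-fold. S100A6 was thus the only member at least 2-fold higher by both algorithms, beside 1.51% of all detected genes. The other probe set, 228923_at, lay below the floor in both populations, with 2.81 in CD133+ cells and 2.83 in CD133- cells. When the probe sets of a gene were averaged, that dim set brought the S100A6 difference to 0.76, below 2-fold.

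S100A14 is an epithelial member of the family that lacks some calcium-binding residues. Its only probe set, 218677_at, had 6.79 in CD133+ cells and 5.72 in CD133- cells, a difference of 1.07 or 2.10-fold. It ranks 190 of the 12899 detected genes. The algorithms disagreed on its size: MAS5 gave signals of 250 in CD133+ cells and 171 in CD133- cells, which is 1.46-fold. S100A14 is therefore 2-fold higher by RMA only, and with housekeeping centring by 0.23 its RMA difference was 0.84.

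S100A16, a widely expressed member and the neighbour of S100A14 on chromosome 1, had 8.98 in CD133+ cells and 8.85 in CD133- cells. That RMA difference of 0.13 was within the spread of a single probe set. By MAS5 the S100A16 signals were 2223 in CD133+ cells and 1764 in CD133- cells, a log2 difference of 0.33.

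S100A2, a nuclear member best known from squamous epithelium, had RMA values of 3.88 in CD133+ cells and 3.46 in CD133- cells, both under the floor, so no fold is given. The MAS5 signals of S100A2 were 34.27 in CD133+ cells and 13.05 in CD133- cells, also below the MAS5 floor of 91.8. KRT5, KRT14 and IVL, markers of squamous cells, were below the floor in both populations as well.

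S100A10 and S100A11 are the members that pair with annexins: S100A10 forms a tetramer with annexin A2 at the plasma membrane, where it also binds plasminogen, and S100A11 binds annexin A1 and takes part in membrane repair. S100A11 had RMA values of 10.26 in CD133+ cells and 9.42 in CD133- cells, a difference of 0.85. The MAS5 signals of S100A11, 7733 in CD133+ cells and 4128 in CD133- cells, gave 1.87-fold, close to the RMA fold. It ranks 269 among detected genes and is the third member counted when the limit is 1.5-fold, beside 3.67% of all detected genes higher and, with no member, 1.01% lower at that limit.

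The main S100A10 probe set, 200872_at, had 12.81 in CD133+ cells and 12.35 in CD133- cells. Its difference was 0.45 by RMA and 0.45 by MAS5, or 1.37-fold and 1.36-fold. The other S100A10 probe set, 238909_at, had 5.47 in CD133+ cells and 4.77 in CD133- cells, the last of these just under the floor. Against the floor this set was at least 1.52-fold higher. This dim set was detected only through CD133+ cells, so the S100A10 value rests on the main set.

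S100A4, also known as metastasin, binds non-muscle myosin and is a marker of motile and mesenchymal-like cells. Its probe set 203186_s_at had 6.44 in CD133+ cells and 5.96 in CD133- cells, a difference of 0.47. By MAS5 the S100A4 signals were 248 in CD133+ cells and 159 in CD133- cells, 1.56-fold. This is the only member probe set with a suffix that marks probes shared between transcripts.

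S100P, first found in placenta and high in many carcinomas, binds ezrin and IQGAP1. It had RMA values of 12.54 in CD133+ cells and 12.41 in CD133- cells, and MAS5 signals of 22788 in CD133+ cells and 20971 in CD133- cells. The fold was 1.09 by both algorithms, so a difference beyond the technical spread was not seen.

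S100A13 takes part in the unconventional release of FGF1 and interleukin 1 alpha. Its main probe set, 202598_at, had 9.85 in CD133+ cells and 9.67 in CD133- cells. The other, 213481_at, went the opposite way, with 5.97 in CD133+ cells and 6.08 in CD133- cells. The MAS5 signals were 3676 in CD133+ cells and 3310 in CD133- cells for the main set, and 158 in CD133+ cells and 236 in CD133- cells for the other. The S100A13 RMA differences of 0.17 and -0.11 are opposite in sign and no larger than the technical spread of 0.21, or about as large as the 0.17 found for pairs above the floor, so the probe sets settle no direction for this gene.

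S100A1 is best known from heart muscle, where it acts on the sarcoplasmic calcium pump and the ryanodine receptor. It had RMA values of 5.24 in CD133+ cells and 5.19 in CD133- cells, a difference of 0.05. MAS5 gave signals of 124 in CD133+ cells and 58.4 in CD133- cells, the last of these below the MAS5 floor, which makes it at least 1.35-fold higher by MAS5. The S100A1 gene overlaps that of S100A13 on the opposite strand. In MAS5 values as measured, S100A1 and S100A6 were the 2 members at least 2-fold higher of 9 detected, beside 4.47% of all genes detected by MAS5. S100A1 was detected there only through CD133+ cells, and counted against the floor S100A6 alone was 2-fold higher. None was 2-fold lower by MAS5, beside 1.71% of those genes.

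**Figure D2:**
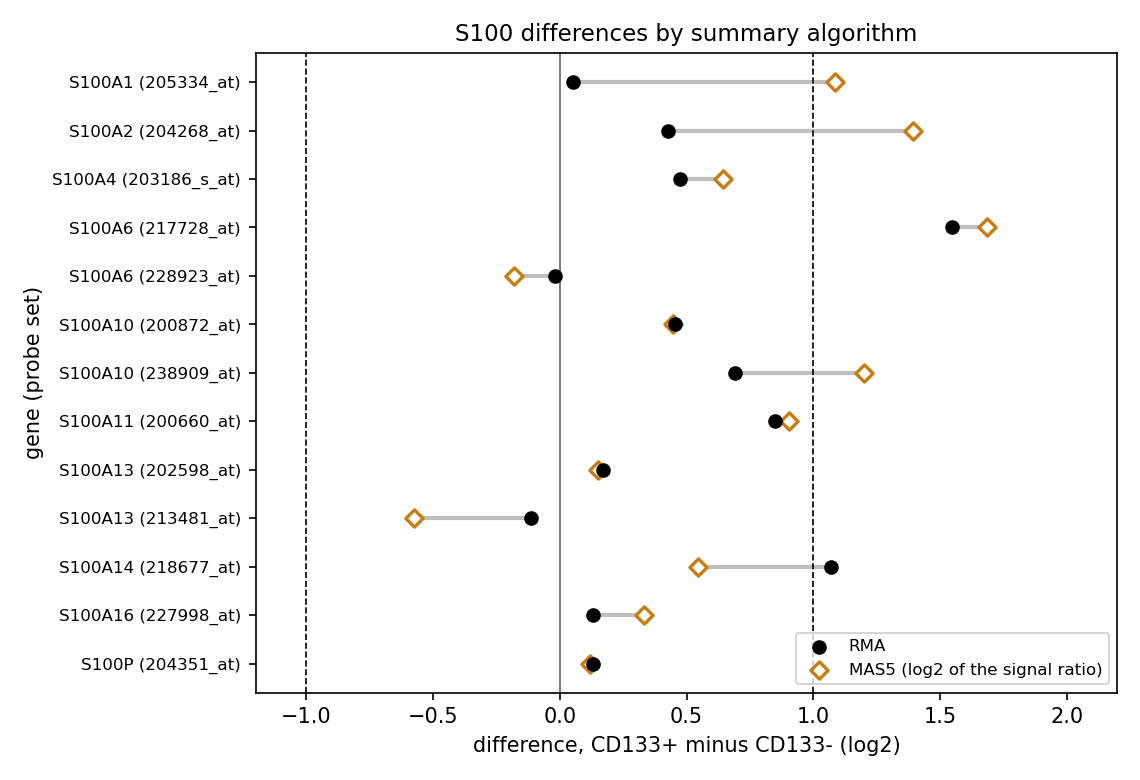
Difference CD133+ minus CD133- (log2, horizontal axis) of each S100 probe set by RMA (black circles) and by MAS5 (open diamonds), taken as the same 2 arrays, with dashed lines at 2-fold. S100A6, S100A10, S100A11, S100A13 and S100P have main probe sets with nearly the same difference by both algorithms, and that of S100A14 is larger by RMA (1.07) than by MAS5 (0.54). The MAS5 points of S100A1, S100A2, S100A6 probe set 228923_at and S100A10 probe set 238909_at are drawn as measured, though in CD133- cells these signals were under 91.8, the floor for MAS5.

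Placed among all detected genes, the 9 detected members fell on different parts of the distribution. Only 0.667% of detected genes had a larger RMA difference than S100A6, 1.47% than S100A14 and 2.08% than S100A11. For S100A4 and S100A10 the shares were 5.03% and 5.33%. For S100A13, S100A16, S100P and S100A1 they lay between 18.5% and 36.3%.

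**Figure D3:**
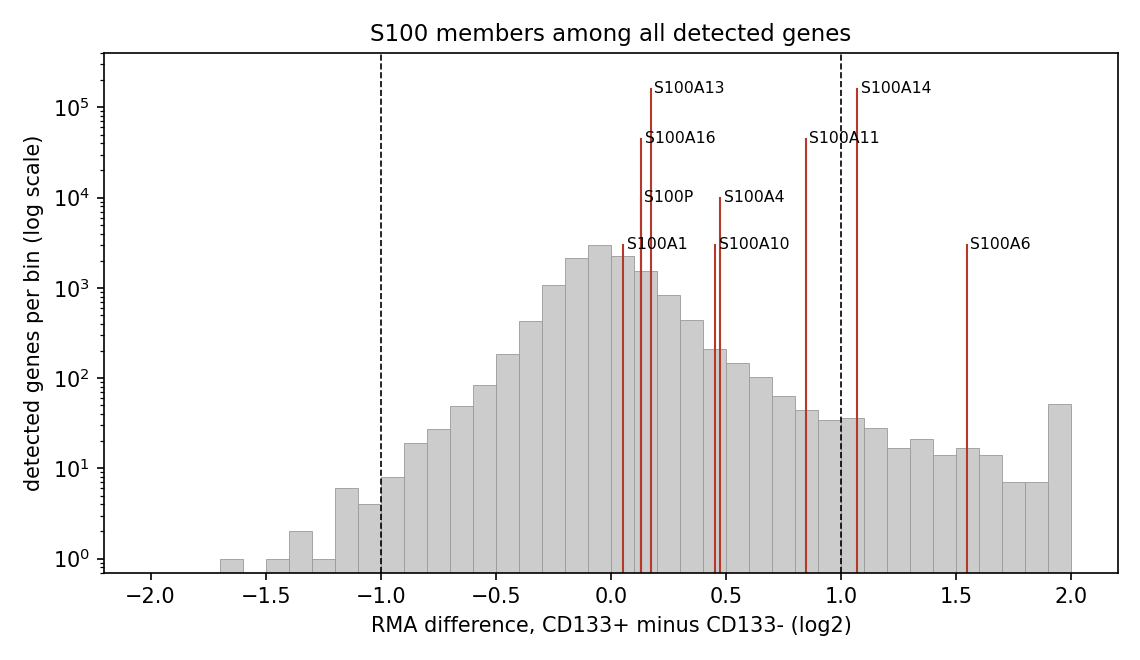
Histogram of the RMA difference CD133+ minus CD133- (log2) over 12899 detected genes, with a log vertical axis and values beyond the ends put in the last bins, and the 9 detected S100 members as red lines whose height has no meaning. S100A6 and S100A14 lie to the right of the dashed 2-fold line. S100A1, S100A13, S100A16 and S100P lie near the middle and turn negative when the arrays are centred on housekeeping genes by 0.23. The median of the housekeeping genes' own differences was 0.02.

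All members but S100P lie in the S100 cluster of chromosome 1, and S100P lies alone on chromosome 4. In the RefSeq gene order, S100A10 and S100A11 stand side by side at one end of the epidermal differentiation complex. The rest stand at the other end in the order S100A6, S100A5, S100A4, S100A3, S100A2, S100A16, S100A14, S100A13 and S100A1. Immediate neighbours differed in value: S100A5, next to S100A6, had 5.29 in CD133+ cells and 5.40 in CD133- cells, a difference of -0.10. S100A3, on the other side of S100A4, was below the floor in both.

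By RMA, the genes around them that are not S100 genes differed by less than 2-fold. Of 67 protein-coding genes between S100A10 and S100A1 or among the 10 on either side, 41 had a probe set named here and 21 were detected, 5 of them inside the cluster and 16 beside it. Their RMA differences ran from -0.29 to 0.30, with a median of 0.02. None was at least 2-fold higher or lower, beside 1.65% and 0.116% of all detected genes. At those shares, none among 21 genes says little about the region. By MAS5, 14 of the 21 lay above the MAS5 floor in both populations, with differences from -0.28 to 0.67. Of the other 7, each with a signal not above that floor in at least 1 population, 3 differed by at least 2-fold in MAS5 values as measured. Around S100P, 13 of 20 neighbours were detected, with differences from -0.43 to 0.07.

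**Figure D4:**
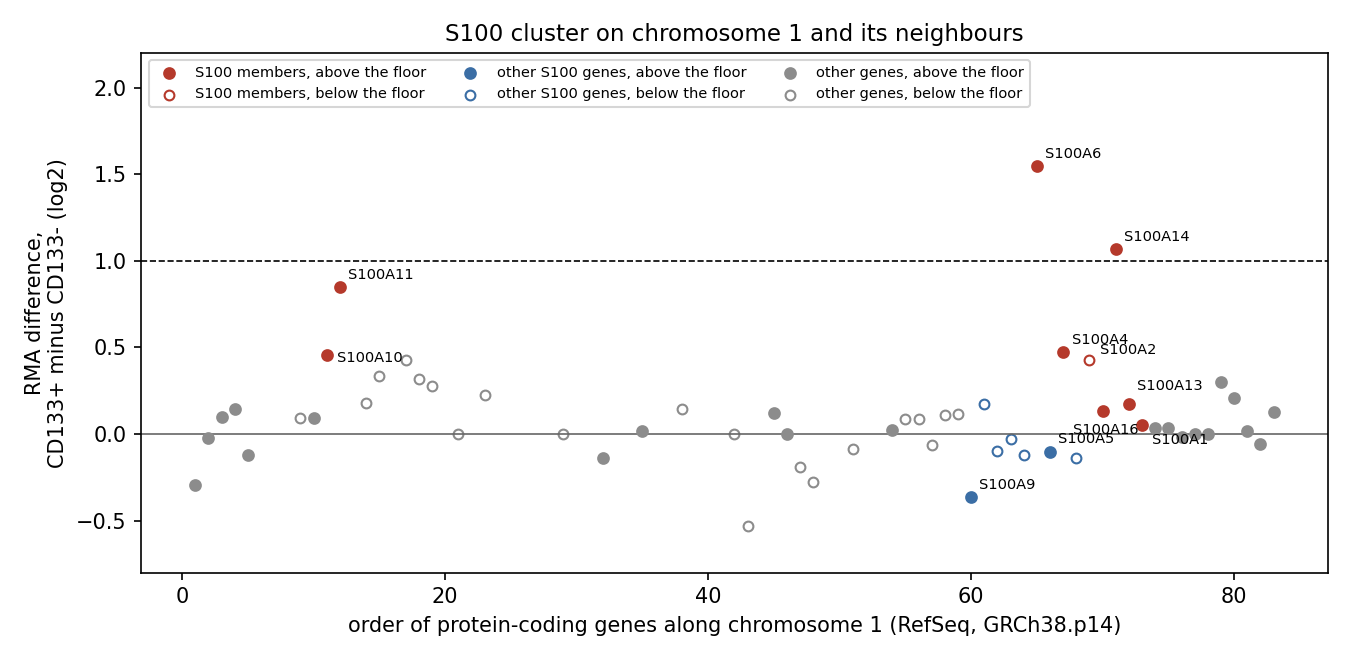
RMA difference CD133+ minus CD133- (log2, vertical axis) of the measured protein-coding genes around the S100 cluster of chromosome 1, in RefSeq order (horizontal axis), with S100 members in red, other S100 genes in blue, other genes in grey, and open circles for genes below the floor in both populations. S100A6 (1.55) and S100A14 (1.07) stand above the dashed 2-fold line, while the detected genes that are not S100 genes stay between -0.29 and 0.30 by RMA. Of all detected genes on the array, only 1.65% were at least 2-fold higher.

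The rest of the S100 family was mostly not detected. Of 10 other S100 genes, each with a probe set, 2 were detected by RMA, and neither was 2-fold different by RMA. S100A9, which with S100A8 forms the calprotectin of neutrophils and monocytes, had 8.65 in CD133+ cells and 9.01 in CD133- cells, a difference of -0.37. By MAS5 the S100A9 difference was -0.50. Of the 10, 2 were detected by MAS5 and 1 was at least 2-fold lower as measured, beside 1.71% of all genes detected by MAS5. That gene, S100A7A, had MAS5 signals of 41.9 in CD133+ cells and 112 in CD133- cells. The first of these signals was below the MAS5 floor, and S100A7A was below the RMA floor in both populations. S100A8 was below the floor in both populations on each of its probe sets. Of 8 listed blood cell markers 6 had a probe set and 5 were detected, from CD14 at -0.25 to CSF1R at 0.14, and PTPRC was below the floor. CSF1R was detected only through CD133+ cells and was at least 1.066-fold higher against the floor. The summed MAS5 signal of these blood cell markers was 13172 in CD133+ cells and 13926 in CD133- cells, nearly all of it from LYZ. The fused-type S100 genes, long proteins of the skin barrier such as filaggrin, were undetected in all 5 cases measured.

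Genes of proteins that bind S100 proteins were not shifted as a group. Of 35 listed partner genes 34 had a probe set and 29 were detected, with 14 positive and 14 negative differences, 1 at 0.00, and a median of 0.00. In the values as measured, 1 of the 29 was at least 2-fold higher and none lower, beside 1.65% and 0.116% of all detected genes, and of the 27 above the floor in both populations none was. The gene counted was ANXA1, the annexin bound by S100A11, with RMA values of 5.26 in CD133+ cells and 3.49 in CD133- cells. Since its CD133- value was below the floor, ANXA1 is shown only to be at least 1.33-fold higher, and its MAS5 signals were 220 in CD133+ cells and 43.4 in CD133- cells. ANXA1 was detected only through the population where it was higher, so that it had to differ.

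The partner of S100A10, ANXA2, had MAS5 signals of 21355 in CD133+ cells and 18469 in CD133- cells, and an RMA difference of 0.23. Both other bright ANXA2 probe sets, which like the first can take up related transcripts, gave 0.25 and 0.23, and the dim one gave -0.42. AGER, which encodes the receptor RAGE, had 5.24 in both populations, and MAS5 signals of that probe set were below the MAS5 floor. TLR4, another receptor of S100 proteins, was below the RMA floor.

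Some partners were named for their role after their values were seen. PLG, plasminogen, a liver secretory product that S100A10 binds, was the lowest of the list, with 9.14 in CD133+ cells and 10.04 in CD133- cells. All 3 PLG probe sets were lower in CD133+ cells, by RMA differences of -0.90, -0.70 and -0.30. ANXA6 had 9.23 in CD133+ cells and 9.86 in CD133- cells, a difference of -0.63. CACYBP, the S100A6 partner, differed by 0.19, MYH9, the S100A4 partner, by 0.13, and IQGAP1, an S100P partner, by 0.10. EZR, which encodes ezrin, differed by 0.18 on its main probe set and by 0.33, 0.57, 0.41 and -0.22 on the others. Only the last of these EZR sets was lower in CD133+ cells. FGF1, released with S100A13, was below the floor.

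Other EF-hand genes gave 2 of 15 detected at least 2-fold higher and none lower, beside the same 1.65% and 0.116% of all detected genes, with a median difference of 0.08. RCN1, a calcium-binding protein of the endoplasmic reticulum, had 6.85 in CD133+ cells and 5.53 in CD133- cells, and MAS5 signals of 870 in CD133+ cells and 286 in CD133- cells. CAPN2, the catalytic subunit of a calcium-activated protease, had 6.12 in CD133+ cells and 4.41 in CD133- cells, at least 2.39-fold against the floor, and was likewise detected only through CD133+ cells. The other CAPN2 probe set was nearly as bright on average, with 5.31 in CD133+ cells and 5.22 in CD133- cells, and differed by only 0.09. Its MAS5 signals were 44.9 in CD133+ cells and 67.2 in CD133- cells, both below the MAS5 floor. Whether CAPN2 is counted as 2-fold higher thus depends on which probe set stands for it. CAPNS1, the regulatory subunit, differed by -0.02.

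**Figure D5:**
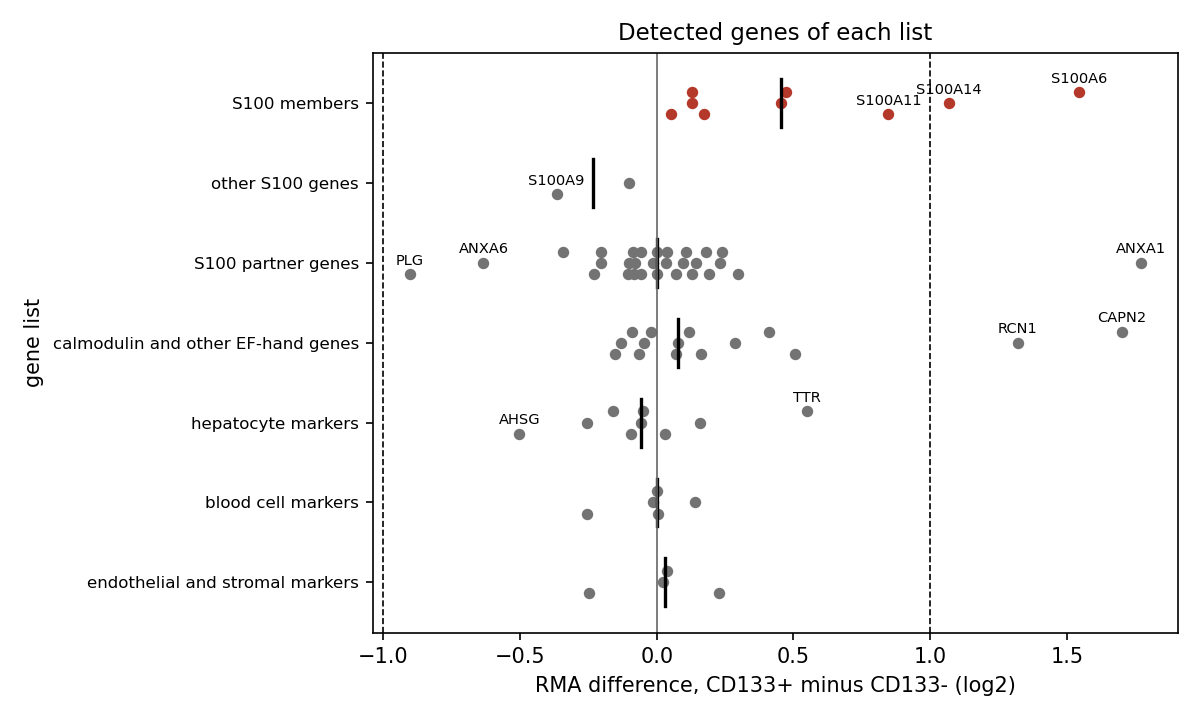
RMA difference CD133+ minus CD133- (log2, horizontal axis) of the detected genes of each list, 1 point per gene, black bars for list medians and dashed lines at 2-fold; vertical scatter within a list has no meaning. The S100 members have a median of 0.45. When the arrays are centred on housekeeping genes by 0.23, it is 0.23 and 4 of the 9 turn negative. The median of the housekeeping genes' own differences was 0.02. The 2 other detected S100 genes have a median of -0.23, and the partner genes have a median of 0.00, with PLG lowest at -0.90. ANXA1 and CAPN2 are drawn at their values as measured, although their CD133- values lie below the floor.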

How the data were processed

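Expression arrays were hybridised with RNA of sorted Huh7 cells, 1 per population. Per the labels' protocols, Trizol was used for RNA and the label was biotin. The authors' deposited MAS5 columns hold linear signal intensity, whose trimmed mean (2% off both ends) was 500.1 for each population. The authors' deposited RMA columns hold log2 values from 1.33 to 14.2. Per the submitters' processing notes, MAS5, RMA and GCOS were used; their versions, the arrays normalized together and a genome build were not given in the sources used here. RMA equalizes array distributions, so a global shift between populations could not be seen. The 4 columns were read as 2 arrays, each summarized in 2 ways, never as replicates, since titles differ by algorithm alone.

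The platform annotation gave 41097 probe sets 1 symbol, 1801 several and 11777 none; symbols were updated through the Entrez number (41043 matched GRCh38.p14), and probe sets without a single symbol named no gene. Differences were computed with pandas 2.3.3 and numpy 2.4.6 under Python 3.11.15. The calling step was run on simulated data, with planted differences well past the 2-fold limit in genes above the floor. That run checks the code only, and not calls near the limit or the floor. The spread of a single probe set is the SD of differences between probe sets of a gene divided by the square root of 2. It leaves out variation between sorts, cultures and hybridizations. Per population 1 array limits the precision. Upstream sequences are RefSeq's.

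Members and lists were chosen with earlier results of these data known. The text names all members, list genes at least 2-fold different or at the ends of a list, and ANXA1, ANXA2, AGER and PROM1. Other genes are named for their role or position, some of them after their values were seen. Alternatives were MAS5, with and without a pseudocount of 50, the mean over probe sets, no shared probe sets, other floors, other centring and a 1.5-fold limit.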

Additional observations from a re-analysis of the deposited data

How the results depend on the processing

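The count of 2 members at least 2-fold higher was unchanged without shared probe sets, with no floor, with each array centred on its own median, and in number by MAS5, where S100A1 and S100A6 were counted in place of S100A6 and S100A14. With signals below the MAS5 floor raised to it, an alternative chosen after seeing the data, S100A1 was at least 1.35-fold higher and the MAS5 count was 1. The count was also 1 in 4 other alternatives: with the mean over probe sets (S100A14), and with the floor at the upper quartile of 6.79, with centring on housekeeping genes and by MAS5 with a pseudocount of 50 (S100A6 in these 3). At 1.5-fold it was 3, beside 3.67% of all detected genes. Of 12899 detected genes, 145 were at least 2-fold higher after housekeeping centring and 209 after centring on the array median. No such count over all genes is given for the mean over probe sets, no shared probe sets, other floors, the pseudocount or the raised MAS5 signals. Whether the background moved with the member count there was not tested. No member was 2-fold lower under any alternative run. The median difference of 0.45 ranged from 0.31 to 0.54 in the other alternatives and was 0.23 after housekeeping centring. That centring shifts every gene by 0.23, the difference between the arrays' medians over 12 housekeeping genes, although the median of those genes' own differences was 0.02; it left the median of all detected genes at -0.24, and S100A1, S100A13, S100A16 and S100P at -0.17, -0.05, -0.10 and -0.10. The partner count of 1 was 0 with the mean over probe sets and with the higher floor. It was 2 after housekeeping centring, with ANXA1 higher and PLG lower in CD133+ cells. Beside these, 145 of 12899 detected genes were at least 2-fold higher and 50 lower after that centring. Of 59 values of single members under alternatives, 43 moved by less than 0.21 and 16 by more, and 10 of these 16 come from the housekeeping centring. No paired analysis was possible because each population has 1 array. No replicate could be left out for the same reason. Signals below a floor leave S100A2 without a fold and S100A1 with only a bound by MAS5.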
